A study of Mus musculus with 18 samples.

Results

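Pitx1-only sites at gene ends are the summits of the full deposited Pitx1 list found no more than 1 kb from the start or finish of a protein-coding gene, with no summit of the deposited Tbx5 list inside 1000 bp. A summit is the highest point of a peak of mapped fragments. The sites were selected on these measured positions, so their closeness to gene ends and their distance from Tbx5 summits are descriptions and not findings. They numbered 6843 of 54941 Pitx1 summits (12.5%, exact 95% interval 12.2 to 12.7) and 92.6% of the 7391 Pitx1 summits at gene ends. The other 548 gene-end summits had a Tbx5 summit within 1000 bp.

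The series mapped chromatin marks and transcription factors in mouse limb buds by chromatin immunoprecipitation and sequencing, to compare the networks that build forelimbs and hindlimbs. Pitx1 was mapped in hindlimbs of wild-type CD1 embryos at e11.5 with the homemade antibody 960A. Tbx5 was mapped in forelimbs of wild-type CD1 embryos at e10.5 with the homemade antibody NP1723. Each factor had 1 sample with paired-end reads, so no value has a replicate error and no test was made. CD1 is an outbred strain, the embryos came from timed breedings, and whether embryos or libraries were pooled is not stated in the labels. Limb, stage, factor and antibody differ together between the maps and cannot be told apart. The Tbx5 list is shorter, at 10273 summits, so "Pitx1-only" means only that no Tbx5 summit was listed nearby. Limb buds hold several cell types, and these lists cannot tell in which of them a site was occupied.

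Pitx1 is a paired-type homeodomain factor that is made in the hindlimb bud and not the forelimb bud, and it is needed for hindlimb growth and shape. Factors of its class bind the bicoid-type core TAATCC, on either strand. Tbx5, a T-box factor, is made in the forelimb bud and starts its outgrowth. Promoters of genes used in every cell often lie in stretches rich in CpG, carry sites for ETS factors, NF-Y and Sp factors, and can drive a pair of genes in opposite directions.

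The sequences around the highest-scoring sites in promoters are shown so that the letters bound by Pitx1-class factors can be looked for in them. The score is the authors' deposited value for each peak, taken to be a −log10 q-value, the form in which the peak caller MACS2 writes it. Sequences are RefSeq promoter sequences of build GRCm38.p6, which is the assembly of mm10. Each runs 5′ to 3′ on the strand of the named gene and covers at most 40 bases on each side of the summit, with at most 28 bases inside a gene. The first 8 are the highest-scoring sites for which such a stretch could be shown. The last 2, Col11a1 and Hand2, are the highest-scoring ones at genes of the limb lists. Capitals mark TAATCC or the closely related TAAGCC, read on either strand, so that GGATTA and GGCTTA are the same cores on the other strand.
Gtf2ird1, chr5:134456857-134456937, minus strand: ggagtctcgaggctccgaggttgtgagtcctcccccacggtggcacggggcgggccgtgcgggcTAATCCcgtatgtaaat
Gm5165, chr17:17234870-17234930, plus strand: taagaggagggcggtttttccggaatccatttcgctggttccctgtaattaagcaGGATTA
Stk11ip, chr1:75521408-75521488, plus strand: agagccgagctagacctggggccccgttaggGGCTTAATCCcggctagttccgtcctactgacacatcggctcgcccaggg
Itfg2, chr6:128424900-128424962, minus strand: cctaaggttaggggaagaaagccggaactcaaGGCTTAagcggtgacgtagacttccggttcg
Tril, chr6:53820932-53821012, minus strand: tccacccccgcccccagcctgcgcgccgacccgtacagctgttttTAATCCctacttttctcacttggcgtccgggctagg
Gucd1, chr10:75517945-75517997, minus strand: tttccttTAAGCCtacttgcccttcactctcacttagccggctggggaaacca
Ska2, chr11:87109119-87109199, plus strand: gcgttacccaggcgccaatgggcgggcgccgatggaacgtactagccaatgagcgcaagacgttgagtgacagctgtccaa
Lrr1, chr12:69168624-69168704, plus strand: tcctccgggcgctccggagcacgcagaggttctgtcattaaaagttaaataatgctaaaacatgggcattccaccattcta
Col11a1, chr3:114030290-114030369, plus strand: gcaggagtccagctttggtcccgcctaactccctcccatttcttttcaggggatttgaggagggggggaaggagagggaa
Hand2, chr8:57320798-57320878, plus strand: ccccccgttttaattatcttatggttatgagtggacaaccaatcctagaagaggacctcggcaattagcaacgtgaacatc

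A core stood in 6 of these 8 highest-scoring stretches, and neither Ska2, Lrr1, Col11a1 nor Hand2 held these letters in the stretch shown. How often other promoter stretches of this length hold a core was not counted. The limit of 28 bases was set after the sequences were seen: a limit of 25 bases cuts off the core at Gm5165 and leaves 5 of 8. A limit of 30 bases gives 6 of 8 as well. With no limit the highest 8 also include Eif1ad, Eif5a2 and Kif9 in place of Ska2, Gucd1 and Lrr1, and 6 of 8 hold a core. The centre of the nearest core lay 2.5 bp from the summit at Stk11ip, where TAATCC and GGCTTA overlap. It lay 5.5 bp away at Itfg2 and 7.5 bp away at Tril. The distance was 17.5 bp at Gm5165, 26.5 bp at Gtf2ird1 and 30.5 bp at Gucd1. These genes have unrelated roles. Gtf2ird1 encodes a relative of the general factor TFII-I, Itfg2 a regulator of nutrient signalling, and Tril a partner of Toll-like receptors.

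The sites were mostly of modest score, with a small number of very high ones. The median score of the 6843 sites was 6.49, with quartiles of 3.83 and 12.6 and a range from 1.32 to 769. Summits inside genes and those between genes, also without a Tbx5 summit near, had the same median of 6.49. Scores take few distinct values at the low end, so equal medians are common. The upper part of the range was lower at gene ends: 5.70% of the sites (5.16 to 6.27) reached the top class when the full list was cut into 10 equal classes by score, against 8.15% inside genes and 10.3% in stretches more than 100 kb from any gene. Gene-end summits with a Tbx5 summit near had a median of 9.54 (8.90 to 10.9), and 12.4% of them reached the top class. Intervals here and in what follows are exact 95% intervals that cover the counting of summits only, and the differences between places were not tested.

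**Figure D1:**
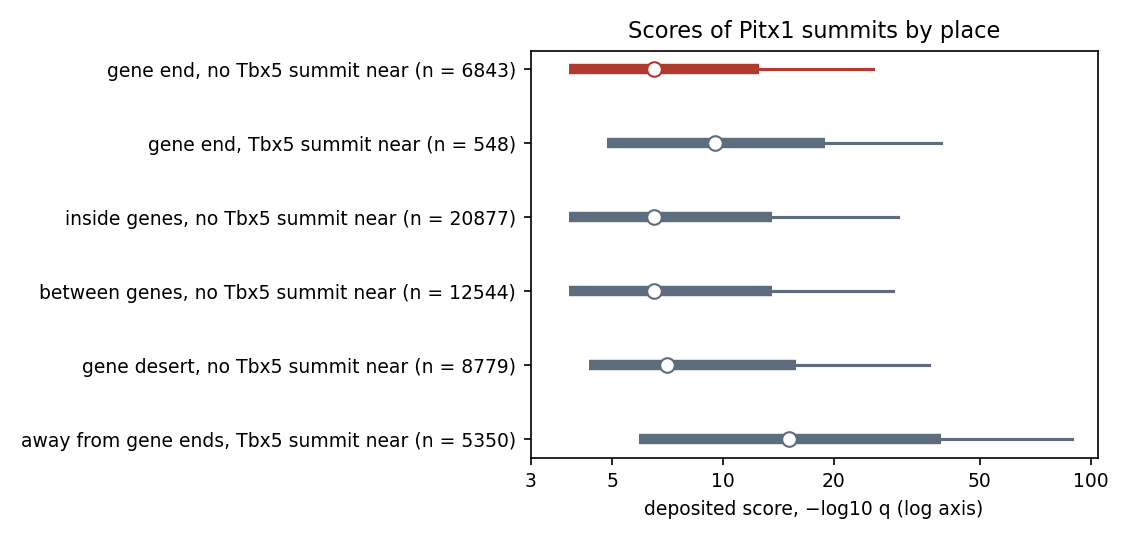
Deposited scores (taken to be −log10 q, log axis) of Pitx1 summits by place, with the gene-end sites without a Tbx5 summit in red. Circles are medians, thick bars run between the quartiles and thin lines run on to the 90th percentile; the sites share their median of 6.49 with summits inside and between genes, and their 90th percentile of 25.5 is below the 29.9 inside genes.

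The highest-scoring site in the whole Pitx1 list was one of these sites. It scored 769 at chr19:5366840, 27 bp inside the start of Eif1ad, and lay within 1 kb of an end of Banf1 as well, which encodes a chromatin protein of the nuclear envelope. The next was at Gtf2ird1 (590), 30 bp before the start. Pus3, which encodes a tRNA-modifying enzyme, followed with 470 at a summit 922 bp inside the gene and 1214 bp from a Tbx5 summit. The others of the highest 12 were at Eif5a2 (340), a form of translation factor eIF5A, Gm5165 (315), Kif9 (311), a kinesin, Stk11ip (280), Itfg2 (231), Tril (222), Acaa1a (220), a peroxisomal thiolase, Ogdh (206), an enzyme of the citric acid cycle, and Cdk5r2 (203), an activator of the kinase Cdk5. The site at Ska2 had the same score as that at Cdk5r2. All 12 were nearest a gene start, and none belonged to the limb gene lists. All but the Pus3 site were in the authors' second Pitx1 list.

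That second list, labelled Mrep2, holds 17783 of the 54941 Pitx1 summits. The labels and file give no account of how it was chosen or of what its label means. It held 1404 of the 6843 sites, or 20.5% (19.6 to 21.5), against 32.4% of all Pitx1 summits. The sites were thus 12.5% of the full list and 7.90% of the second list. The share was 30.8% inside genes, 29.6% between genes and 35.4% far from genes, each without a Tbx5 summit near. Where a Tbx5 summit was near, it was 29.4% at gene ends and 55.6% away from them.

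The share was lower than that of other Pitx1 summits of like score. Presence in the second list rises steeply with score, so the sites were set beside other Pitx1 summits of the same score class. At the rates of those other summits, 29.7% of the sites would have been in the second list, against the 20.5% observed. In the top class, 75.4% of the 390 sites were present (70.8 to 79.6) and 94.9% of other summits. In the lowest class the shares were 4.93% (3.46 to 6.79) and 5.12%.

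The gap was seen at gene starts and not at the other end of genes, although the difference between the ends was not tested. The start and the other end could be told apart for 5487 sites, 80.2% of all, through the 17492 of 21887 genes with an entry in the RefSeq promoter table. Of the 4820 sites nearest a start, 19.8% (18.7 to 20.9) were in the second list, while the rates of other summits give 30.2%. Of the 667 sites nearest the other end, 25.9% (22.6 to 29.4) were present, and the rates of other summits give 25.3%. Gene-end summits with a Tbx5 summit near showed a gap of the same direction: 29.4% were present, against 40.2% at the rates of summits away from gene ends. The same reference gives 29.8% for the sites themselves.

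**Figure D2:**
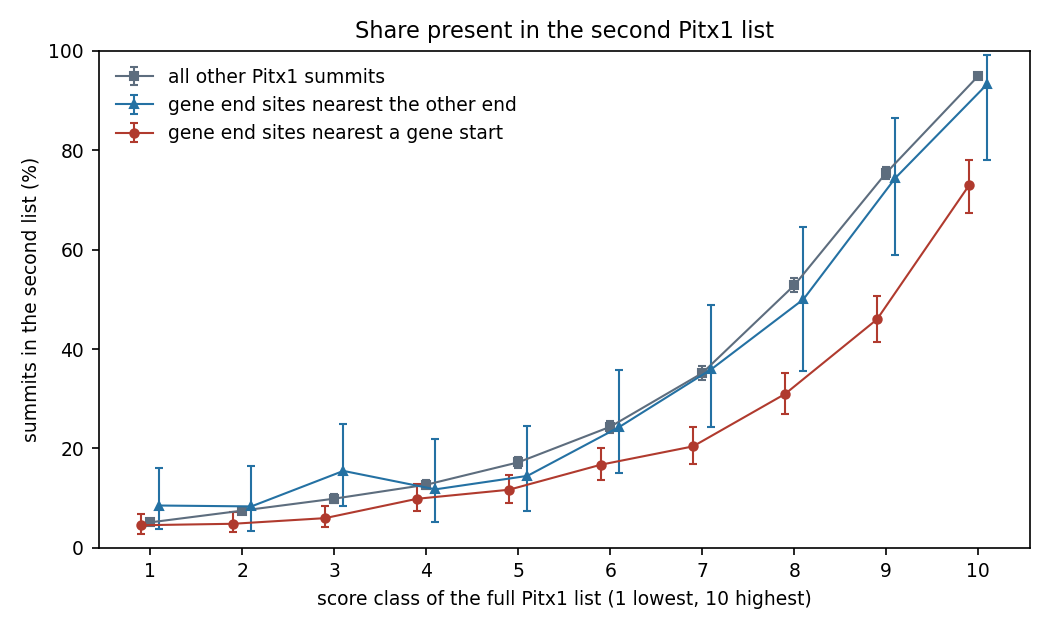
Share of summits present in the second Pitx1 list (percent, with exact 95% intervals) in each of 10 score classes of the full list. Sites nearest a gene start lie below all other Pitx1 summits in each class, by most in the upper ones (46.0% against 75.4% in class 9), whereas sites nearest the other end lie close to the other summits.

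Single sites show both sides of this selection. The highest-scoring sites left out of the second list were at Pus3 (470), Gga1 (186), which encodes a Golgi adaptor, and Rps7 (128), a protein of the small ribosomal subunit. The lowest-scoring sites kept in it were at Lrrtm2, a synaptic adhesion protein, Hnrnpa2b1, an RNA-binding protein, and Cspg4, a proteoglycan, each with a score of 2.03. The scores of sites kept and sites left out therefore overlapped over most of their range.

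Most sites whose direction is known were at starts. Of the 5487, 4820 (87.8%, 87.0 to 88.7) were nearest a start and 667 the other end. Gene-end summits with a Tbx5 summit near had a like share, 87.1%. Sites at starts gathered close to the start itself: 46.2% lay within 250 bp and 22.5% within 100 bp, and 53.2% lay before it. At the other end 30.7% lay within 250 bp, and the median distance was 431 bp, against 286 bp at starts.

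**Figure D3:**
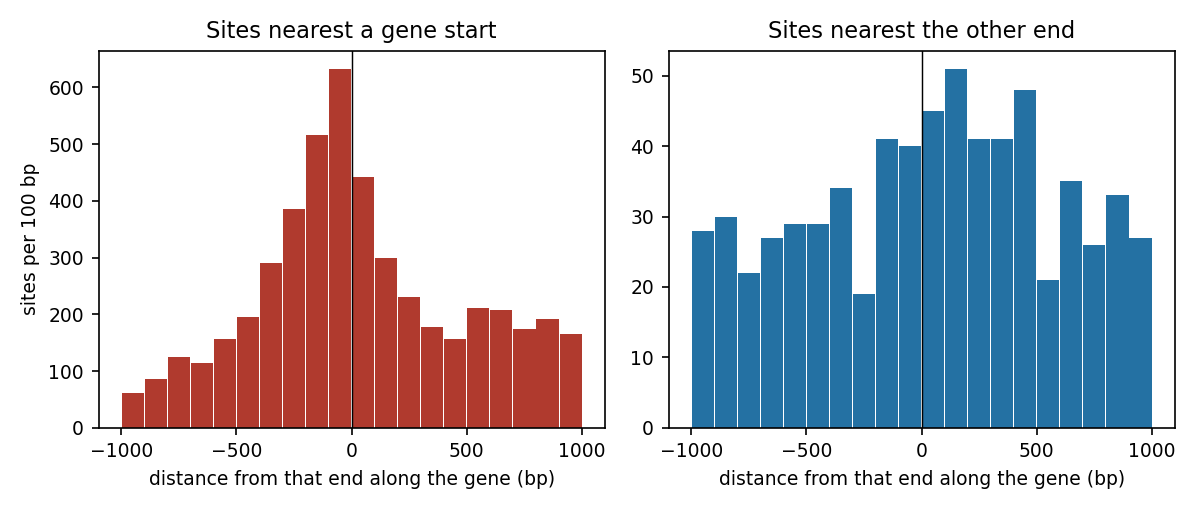
Sites per 100 bp by distance from the nearest gene end (bp, negative before that end in the direction of the gene), on separate vertical scales. Sites nearest a start peak just before it, with 633 in the last 100 bp, whereas those nearest the other end range from 19 to 51 per 100 bp with a broad rise after that end.

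Scores followed the same shape. The median score was 8.90 in the 100 bp on either side of the start, 7.67 from 250 to 100 bp before it and 5.37 from 1000 to 500 bp before it. Inside genes it was 6.49 from 100 to 250 bp and 4.84 from 500 to 1000 bp after the start. The share in the second list moved with it, from 28.5% (24.3 to 33.0) in the first 100 bp of the gene to 12.6% (10.6 to 14.9) at 500 to 1000 bp. Both the nearest and the farthest sites were below the rates of summits away from gene ends at their scores. Within 250 bp of a start 24.9% were present against 35.5%, and beyond 500 bp 14.1% against 24.1%.

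Starts of genes on opposite strands within 1 kb of each other, whether or not the genes overlapped, were common among the sites' genes. Of all directed genes, 10.3% had the start of a gene on the opposite strand within 1 kb. Of genes with a site at the start, 19.3% did (18.2 to 20.4). A gene with such a neighbour can be counted through a site nearer the neighbour's start, and that part was not tested. Another count took the 518 sites within 1 kb of starts on both strands, which can lie over 1 kb apart. Their median score was 7.67 (7.07 to 8.90), and 19.7% of them were in the second list. Other sites near a start had a median of 6.49 and a share of 19.9%.

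Letters of the promoter windows differed with score. RefSeq windows of 300 bases, 250 before and 50 from each start, held 1738 sites (25.4% of all). TAATCC, searched on both strands, stood in 12.5% of windows with a site (10.97 to 14.1), against 6.42% of all 21238 windows of the same length and 5.62% of those with no Pitx1 summit. The sites in windows were cut by score into 5 equal groups. The share was 9.80%, 7.18%, 7.49% and 8.33% in the lower groups and 29.6% (24.8 to 34.7) in the top group, whose scores began at 20.5. The excess over all windows was thus mostly in the top group. TAAGCC stood in 13.2% of windows with a site and 19.8% of the top group, against 8.83% of all windows. Either core stood in 45.1% of the top group (39.8 to 50.5), against 17.3% of the lowest group and 14.7% of all windows. The other windows of the top group held neither in these exact letters.

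The position of TAATCC also changed with score. In the windows that held it, the nearest match lay a median of 37.5 bp from the summit, and 36.9% had 1 within 25 bp. In the top group these values were 24.5 bp and 51.5% of 103 windows, and in the lowest group 62 bp and 11.8% of 34 windows. The sites with TAATCC in the window had a median score of 18.9 (13.6 to 23.0), and 48.8% of them were in the second list. Sites with neither core had a median of 8.28 (7.67 to 8.28), and 21.4% of them were in the second list. Of windows with a site in the second list 22.7% held TAATCC, against 8.73% of those with a site left out. These matches are descriptions of letters and do not show which base a factor contacted.

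Letters of general promoter factors were also more frequent, with a different relation to score. CCGGAAG, a core of ETS factors, stood in 27.4% of windows with a site against 11.6% of all windows. It was at 18.4% in the lowest group of scores and 35.9% in the top group. Between sites in the second list and those left out it was at 28.97% and 26.8%, with overlapping intervals. CCAAT, the core of NF-Y sites, stood in 48.8% against 38.2% of all windows, and GGGCGG, the core of Sp sites, in 53.0% against 46.2%. TATAAA, the TATA box, was less frequent, at 8.06% against 12.6%. AGGTGT, the core of T-box sites, was at 10.4% against 12.7%, and at 16.4% (10.7 to 23.6) in the 140 windows of gene-end summits with a Tbx5 summit near. All were searched on both strands, and a window can hold several of them. The observed-to-expected ratio of CpG moved with these shares: its median was 0.733 in windows with a site and 0.567 in all windows, at GC contents of 56.7% and 56.3%. It was 0.695 in the lowest group and 0.776 in the top group of scores, and its part in the motif shares was not tested.

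**Figure D4:**
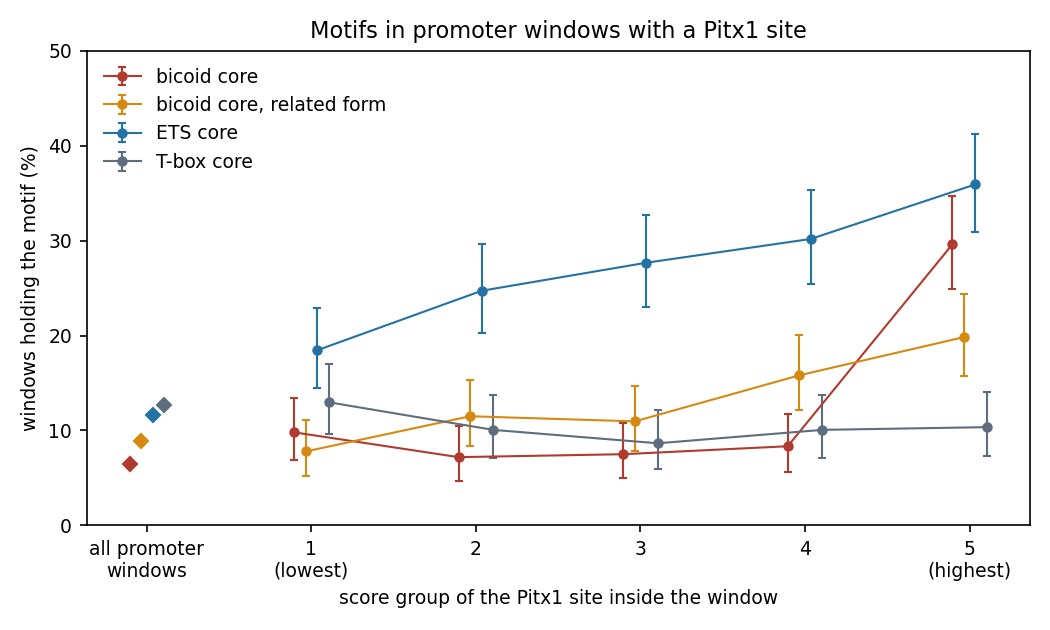
Share of promoter windows (percent, with exact 95% intervals) that hold each motif, for all windows (diamonds) and for windows with a site, by score group of the site (circles). The bicoid core is between 7.18% and 9.80% in the lower groups and 29.6% in the highest, while the ETS core is higher in each next group, from 18.4% to 35.9%.

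At the level of genes, 6565 of 21887 protein-coding genes (30.0%) had a site within 1 kb of an end. Of directed genes, 4829 (27.6%) had a site within 1 kb of the start and 785 (4.49%) had a site at the other end. The best score per gene had a median of 7.67, and 1554 of the 6565 genes (23.7%) had a site in the second list. A single site was within reach of ends of 2 or more genes in 969 cases (14.2%), so genes are not independent of each other. The shares of gene lists that follow are read beside the 30.0% and were not tested.

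Genes of protein synthesis held sites often. Of the 89 proteins of the cytosolic ribosome, 57 had a site (64.0%, 53.2 to 73.9), with the highest at Rps7 (128), Rps26 (85.7) and Rpl32 (73.0). Translation factors had one in 37 of 59 genes (62.7%), led by Eif1ad, which entered that list by its name, and then by Eef1a1 (49.2), the main elongation factor, and the helicase gene Eif4a1 (38.3). The mitochondrial ribosome followed with 36 of 78 (46.2%), led by Mrpl28 (103), and aminoacyl-tRNA synthetases with 19 of 37 (51.4%), led by Pars2 (34.5) and Farsb (26.4). A site in the second list stood at 3 of those 19 synthetase genes and 13 of the 57 ribosomal ones, beside the 23.7% of all genes with a site.

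Other lists of genes used by all cells also lay above the share of all genes. Subunits of the Mediator complex, which links transcription factors to RNA polymerase, had a site in 21 of 30 genes (70.0%, 50.6 to 85.3), with Med25 at 196 and Med29 at 45.2. RNA polymerase subunits and general factors had one in 37 of 65 (56.9%), with Gtf2e1, a subunit of TFIIE, at 130 and Polr3b at 65.2. Splicing genes had one in 48 of 83 (57.8%), with the spliceosome core protein Snrpd3 at 172 and Srsf7 at 76.4. The site at Snrpd3 is the same one whose sequence is shown for Gucd1. The share was 59.0% for the respiratory chain and ATP synthase (49 of 83, Cox7a2l at 79.9 and Atp5mpl at 36.4) and 51.0% for the proteasome (25 of 49, Psma1 at 85.7 and Psmd5 at 42.2). The replication and cell cycle list had one in 37 of its 74 genes. Its highest were Cdk12 at 110, which encodes a kinase that acts in transcription, and Cdc6 at 45.2. Chaperones had one in 33 of 80 (41.3%), with Hspa13 and Hspa4 at 45.2 each. Among sites of the second list alone, the replication and cell cycle list fell on the other side of all genes, at 6.76% against 7.10%.

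Replication-dependent histone genes, which lie in clusters and are read in S phase, had the highest median of best scores among lists with at least 10 genes. Of 67 genes 45 had a site (67.2%, 54.6 to 78.2), the median best score was 18.9, and 30 of the 45 had a site in the second list. H2ac6 and H2bc4 shared a site of 57.6, and H3c1 and H4c1 shared one of 52.3. The 45 genes rest on 51 distinct sites. C2H2 zinc finger genes named Zfp had a site in 188 of 424 (44.3%), led by Zfp960 (169) and Zfp623 (92.9).

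**Figure D5:**
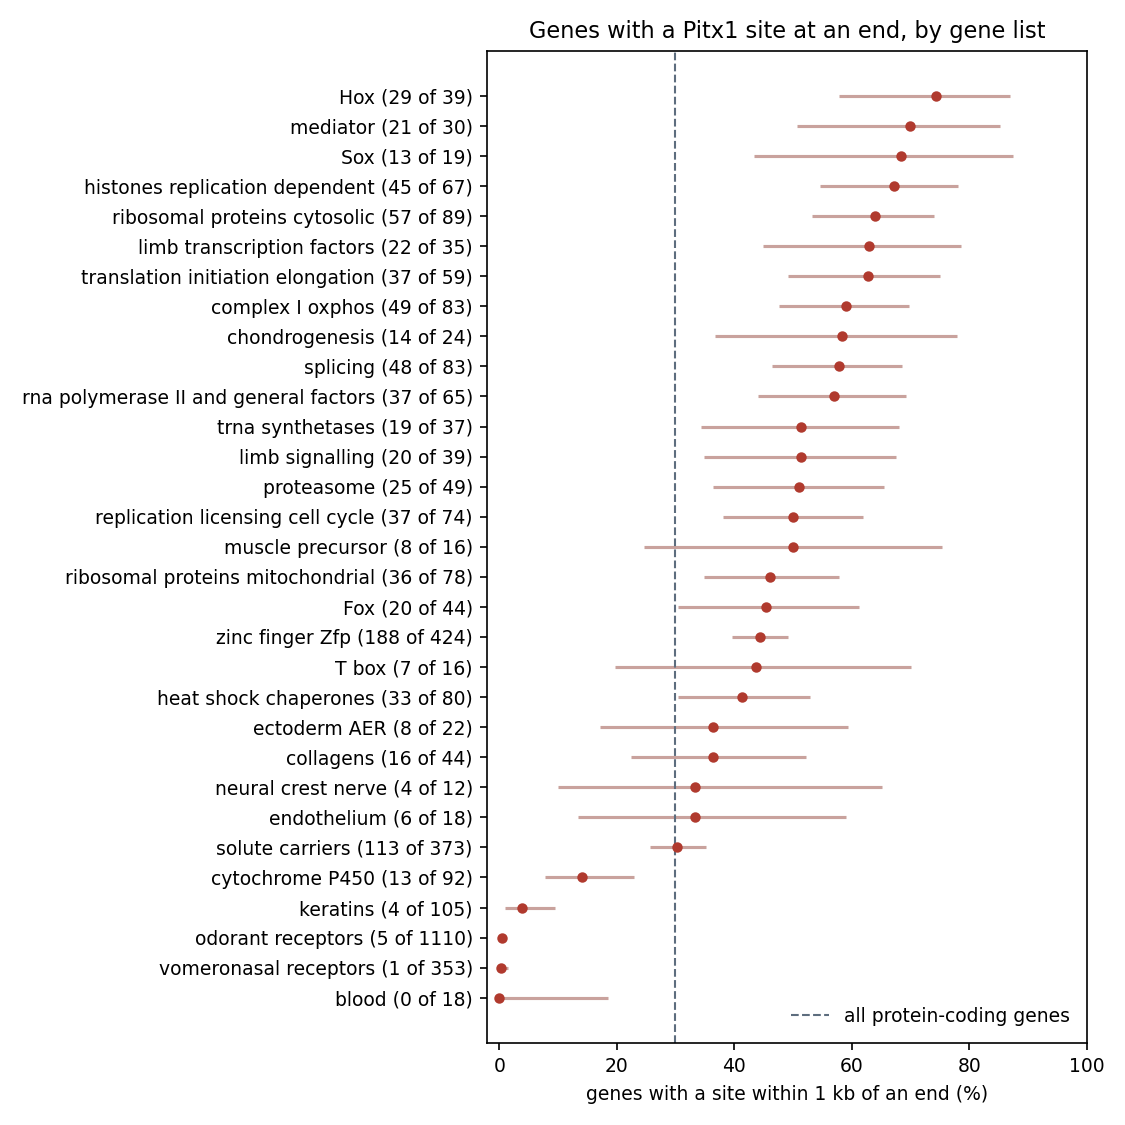
Share of genes with a site within 1 kb of an end (percent, with exact 95% intervals), for the 31 lists with at least 10 genes; the dashed line is the 30.0% of all protein-coding genes. Of the 31 lists, 26 lie above the line, and blood, receptor, keratin and cytochrome P450 genes lie below it. Among those above, the intervals of the T-box, collagen, solute carrier, muscle, ectoderm, endothelial and nerve lists include the line.

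Hox genes, which set position along the limb and trunk, had the highest share of the lists with at least 10 genes when all sites within 1 kb were counted. The order changed with other choices: at 500 bp the share was 53.8% for Hox, 63.2% for Sox and 59.7% for histone genes, with the second list 28.2% for Hox and 44.8% for histone genes, and above the median score 33.3% for Hox and 59.7% for histone genes. Of 39 genes 29 had a site (74.4%, 57.9 to 87.0), resting on 50 distinct sites, and 11 had a site in the second list. The highest scores were at Hoxd3 (45.2), Hoxc9 (40.2), Hoxc10 (37.3) and Hoxc13 (35.4). Hoxd4 (31.7), Hoxa10 (29.9) and Hoxc12 (19.7) came next, and the best scores of the other 22 genes lay between 2.03 at Hoxb6 and 11.54 at Hoxa3. Neighbouring Hox genes share sites, as Hoxb3 and Hoxb5 did with a score of 3.35, and 10 Hox genes also had a gene-end Pitx1 summit with a Tbx5 summit near.

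Of the 7 genes listed for hindlimb identity, 6 had a site (85.7%, 42.1 to 99.6), beside 30.0% of all genes. They were Hoxc9, Hoxc10, Hoxc11 (7.67), Hoxc12, Isl1 and Pitx1 itself, and the Hoxc genes are also counted among the Hox genes above. Pitx1 had 4 sites. Those at its lower-coordinate end scored 21.3 at chr13:55824543 and 18.9 at chr13:55825480, and those at its upper end scored 5.92 and 3.83. The sites of 21.3 and 3.83 were in the second list. Isl1, a homeodomain gene needed to start the hindlimb, had 4 sites with scores of 8.28, 5.92, 2.45 and 2.03, none in the second list. Of the 4 genes listed as forelimb associated, Hoxc4 (8.90), Hoxc5 (3.83) and Hoxc6 (4.84) had a site.

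Tbx4, the hindlimb T-box gene, and Tbx5 had no site, since the rule leaves out summits with a Tbx5 summit near. The Pitx1 summit nearest an end of Tbx4 lay 317 bp from it with a score of 4.32, 207 bp from a Tbx5 summit. The Pitx1 summit nearest an end of Tbx5 lay 94 bp from it with a score of 3.83, 214 bp from a Tbx5 summit. Neither was in the second list. Among T-box genes 7 of 16 had a site, with Eomes at 32.7 and Tbx10 at 15.1.

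Other genes of limb patterning had sites more often than all genes. Transcription factors of both limb buds had one in 22 of 35 genes (62.9%, 44.9 to 78.5). The highest were at Meis1 (29.04), a gene of the proximal limb, Hand2 (27.3), which acts before Sonic hedgehog in the posterior bud, Osr2 (21.3) and Shox2 (20.5), which is needed for the upper limb bones. Signalling genes had one in 20 of 39 (51.3%, 34.8 to 67.6), with Spry4, an FGF antagonist, at 130, Bmp7 at 29.04, Lef1, a Wnt effector, at 22.2 and Fgf17 at 20.5. The site of 130 lay 181 bp from an end of Spry4 but nearer an end of Arhgap26, at 89 bp. Cartilage genes had one in 14 of 24 (58.3%), with Col11a1 at 27.3, the BMP receptor gene Bmpr1b at 23.0 and Sox5 at 15.8. Sox factors had one in 13 of 19 (68.4%), led by Sox4 (26.4), and forkhead factors in 20 of 44 (45.5%), led by Foxc2 (22.2). Among sites of the second list the limb transcription factors were at 22.9% and signalling genes at 17.9%, against 7.10% of all genes.

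Lists for other cell types and for specialised organs differed widely. Muscle precursor genes had one in 8 of 16 (Six4 at 7.67, Pax3 at 5.92), ectoderm and apical ridge genes in 8 of 22 (En1 at 16.6, Dlx5 at 7.67). Endothelial genes had one in 6 of 18 (Ets1 at 6.49, Kdr at 5.37), and nerve and neural crest genes in 4 of 12 (Neurog1 at 7.07, Foxd3 at 4.84). With all sites, the intervals of the muscle, ectoderm, endothelial and nerve lists include 30.0%. A site in the second list stood at 1 of 16 muscle, 0 of 22 ectoderm, 0 of 18 endothelial and 0 of 12 nerve genes. The share of all genes was 7.10%, and counts this small cannot set these lists apart from it. None of the 18 blood genes had a site, which allows a share of up to 18.5%. Odorant receptors had a site in 5 of 1110 genes (0.450%), vomeronasal receptors in 1 of 353 (0.283%), keratins in 4 of 105 (3.81%) and cytochrome P450 enzymes in 13 of 92 (14.1%). Collagens, with 16 of 44 (36.4%), and solute carriers, with 113 of 373 (30.3%), were close to all genes, and each fell below them under another choice of sites.

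Some genes held several sites. Of the 6565 genes, 5404 had 1, 1015 had 2, 123 had 3, 20 had 4 and 3 had 5. The 3 with 5 sites were Eif4a2, a translation helicase, Pcdhgc4, a clustered protocadherin, and Pou3f3, a POU-domain factor. Pou3f3 had scores of 11.54 and 1.64 at its start and 1.64, 2.89 and 6.49 at its other end. Eif4a2 had 28.1 and 4.32 at its start and 3.83, 3.83 and 3.35 at its other end, none in the second list. Some of these counts rest on shared sites. Those at the other end of Eif4a2 also lay at an end of Rfc4, and Pcdhgc4 shared sites with Pcdhgc3 and Pcdhgb7. The 20 genes with 4 sites included the developmental genes Pitx1, Isl1, Osr1, Sox11, Sp9, Olig2 and Hoxa3. Osr1, a gene of early lateral mesoderm, had 17.4, 10.2, 7.07 and 5.92, while each of the 4 at Sp9, a gene of the apical ridge, was at 4.84 or below.

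Sites came close to other Pitx1 summits more often than summits elsewhere did. Another Pitx1 summit lay within 2 kb of 35.2% of the sites (34.0 to 36.3) and of 24.9% of all other Pitx1 summits. Sites lay at both ends of 339 of the 5275 directed genes that had a site (6.43%). A gene-end Pitx1 summit with a Tbx5 summit near stood at 102 of the 6565 genes (1.55%) and at 557 of all 21887 protein-coding genes (2.54%). The rule takes such summits out, so a gene with one is among the 6565 only through a different summit. These shares therefore depend on the selection and are not a finding.

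The limits of the rule fell among unremarkable scores. Just inside 1 kb were sites at Mfap3l (24.7, 999 bp), Hmx2 (3.83, 999 bp) and Nfya (8.90, 998 bp), and just outside, each at 1001 bp, summits near 9530057J20Rik (5.06), Rabac1 (3.83) and Wnt5a (11.54). The sites closest to a Tbx5 summit were at Spaca6 (2.89, 1003 bp), Ednra (4.84, 1003 bp) and Bcas1 (15.1, 1006 bp). Gene-end summits that just failed this limit were at Snx5 (23.0, 996 bp), Cdc5l (9.54, 992 bp) and Cd3eap (5.37, 987 bp). Most sites were far from this limit, with a median of 91.6 kb to the nearest Tbx5 summit, and 365 (5.33%) lay 1 to 5 kb from one. A Tbx5 summit was near for 7.41% of Pitx1 summits at gene ends and 11.3% of those away from them. In the top class of Pitx1 scores these shares were 14.8% and 28.7%, and in the lowest class 5.08% and 5.90%.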

How the data were processed

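Pitx1 and Tbx5 were each mapped by ChIP-seq in 1 of the 18 samples of the series, and the other samples are not analysed here. Peaks carry MACS2 names, and the submitters' processing notes name Bowtie 1.1.2, Bowtie2 2.2.6, MACS2 2.1.1.20160309, HOMER and build mm10, with no role for any of them. The authors' deposited score is taken to be a −log10 q-value, the form in which MACS2 reports it. The series holds input samples titled for the hindlimb at e11.5 and for the forelimb Tbx5 map. Whether they served as controls in peak calling is not stated in the sources used here. Read numbers, filters and the choice of the second Pitx1 list are not given either, so read depth is unknown and no interval covers it. A further deposited score in the second list is unexplained and was not used.

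Gene ends were those of 21887 protein-coding genes in RefSeq GRCm38.p6, and strand, start sites and sequence from RefSeq promoter windows, which matched 17492 of them. Summits were put into 10 score classes of the full list, and the sites' expected share in the second list was the mean of the other summits' rates in the sites' classes. Shares have exact Clopper-Pearson 95% intervals and medians binomial order-statistic intervals. Python 3.11.15, pandas 2.3.3 and scipy 1.17.1 were used, and the distance and motif code was tested on planted positions and sequences.

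The sites and the gene lists were chosen with earlier results of these data known. Genes named are those of the 12 highest-scoring sites, the 2 to 4 highest of each list, those with the most sites, the sites next to each threshold and next to the second list's limits, and Pitx1, Tbx4, Tbx5 and Hox genes. Some genes that this rule would name are not reported here. The genes whose sequences are shown, the length of those stretches, Sp9 and Osr1 among genes with 4 sites, and the summits of Tbx4 and Tbx5 were picked after values were seen. Alternatives changed the distance to gene ends (500 bp, 2 kb) and to Tbx5 summits (200 bp, 5000 bp), used the second list or scores above the median, left out model and clone symbols, and took the nearest end only.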

Additional observations from a re-analysis of the deposited data

How the results depend on the processing

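No paired analysis was possible because each factor has 1 sample. Of 37 alternative values for the main results 21 stayed within 1.5 times the count or inside the 95% interval of the value reported, and the other 16 did not. Gene ends within 500 bp gave a median score of 7.07 and 22.6% of sites in the second list, and 2 kb gave a median of 5.92. With the second list alone there were 1404 sites at 1554 genes, with a median score of 15.8, 84.6% nearest a start, 4.12% of genes with 2 or more sites and TAATCC in 22.7% of windows. With scores above the median of the full list there were 2987 sites at 3308 genes, with a median of 13.6, 36.3% in the second list, 89.8% nearest a start, 5.50% of genes with 2 or more sites and TAATCC in 15.5% of windows. Higher scores are part of how these last sets were made. The share of all genes with a site was 22.2% at 500 bp, 7.10% with the second list and 15.1% above the median. The number of gene lists above all genes, 26 of 31, became 22 at 500 bp and 20 with either score-based set. These counts take no account of the intervals. The limit on bases inside a gene, an alternative chosen after seeing the data, changed the displayed stretches with a core from 6 of 8 to 5 of 8 at 25 bases, and the shares of windows with a motif do not use it. With 20 score classes the share in the second list at the rates of other summits was 29.6%. Moving the Tbx5 limit to 200 bp or 5000 bp gave 7112 and 6478 sites. Read depth is unknown, and no second sample of either factor is given. The low share of start sites in the second list cannot be set against its selection, for which no account is given.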
